A study of Mus musculus with 14 samples.

Results

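A set of 10 regulators of mitochondrial biogenesis and fuel oxidation was followed in mouse quadriceps with and without histone deacetylase HDAC3. They are the PGC-1 coactivator genes Ppargc1a and Ppargc1b, the estrogen-related receptor (ERR) genes Esrra, Esrrb and Esrrg, the peroxisome proliferator-activated receptor genes Ppara and Ppard, the nuclear respiratory factor genes Nrf1 and Gabpa, and Tfam. They were taken by gene symbol from a table of 24354 genes, where all 10 members were found. RNA-seq levels are in FPKM, fragment counts corrected for transcript length and library depth, for 3 wild-type and 3 knockout libraries. All 6 libraries came from quadriceps of resting male C57BL/6 mice aged 4 months, on normal chow and a normal light/dark schedule, sampled at ZT10 (Zeitgeber time, hours from lights on). The genotypes are given only as HDAC3 wild type and HDAC3 knock-out, with no Cre driver or deleted exon named and no agent given. Nothing states that the replicates are separate animals, so p-values measure only a spread between libraries that may be technical. The series has 14 samples, of which the other 8 (HDAC3 ChIP-seq, input and nascent RNA) were not used here.

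PGC-1 alpha and PGC-1 beta bind no DNA themselves. They dock on transcription factors, among them the ERRs and PPARs, and recruit the machinery that switches on genes of the respiratory chain, the citric acid cycle and fat oxidation. NRF-1 and NRF-2 (GABPA is the DNA-binding subunit of NRF-2) drive nuclear genes of the respiratory chain and of mitochondrial protein import, and also the gene for TFAM, which packages mitochondrial DNA and starts its transcription. In muscle this network rises with endurance training and is most active in slow, oxidative fibres. HDAC3 is the histone deacetylase that works inside the NCoR and SMRT corepressors, which nuclear receptors bring to DNA.

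Of the 10 regulators, Esrrg and Tfam rose in the knockout. Their promoter sequences are shown first, since these are the genes the results turn on, and short stretches of Ppara and Ppargc1a are added because each holds a match to a motif of this network or its inducers. The sequences are those of RefSeq on GRCm38.p6, read 5′ to 3′ on the gene's strand and ending at or before the base next to an annotated start. Capitals mark the motif match.
Tfam: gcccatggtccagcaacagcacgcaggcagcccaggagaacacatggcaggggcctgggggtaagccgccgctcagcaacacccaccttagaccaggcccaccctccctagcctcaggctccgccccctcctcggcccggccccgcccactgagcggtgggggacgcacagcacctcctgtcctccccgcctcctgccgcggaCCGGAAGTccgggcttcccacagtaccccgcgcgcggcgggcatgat
Esrrg: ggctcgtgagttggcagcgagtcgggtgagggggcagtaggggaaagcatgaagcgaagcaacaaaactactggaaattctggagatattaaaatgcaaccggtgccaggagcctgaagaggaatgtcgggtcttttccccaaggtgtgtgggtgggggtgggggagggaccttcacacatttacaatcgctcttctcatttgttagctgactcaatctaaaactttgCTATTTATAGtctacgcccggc
Ppara: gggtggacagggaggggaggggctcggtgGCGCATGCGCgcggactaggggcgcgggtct
Ppargc1a: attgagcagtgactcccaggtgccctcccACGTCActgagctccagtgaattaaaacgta

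The Tfam stretch is chr10:71238045-71238294 on the minus strand, and its match is CCGGAAGT, a GABP/ETS motif, from base -47 to base -40 before the start. The Esrrg stretch is chr1:187608756-187609005 on the plus strand. It lies before 1 of 4 annotated Esrrg starts and holds an exact match to the MEF2 motif at -22 to -13; the other Esrrg windows held no match to any of the motifs searched. The Ppara stretch is chr15:85735716-85735775 on the plus strand, with the palindromic NRF-1 motif at -31 to -22. The Ppargc1a stretch is chr5:51567745-51567804 on the minus strand, with the CRE half-site TGACGT on the opposite strand at -50 to -45. Only 1 Ppargc1a start was searched, so any other promoter of the gene was not. In all, 5 motifs were searched on both strands in the 250 bases before 14 annotated starts of 9 members (not Ppargc1b). The motif TCAAGGTCA, the ERR element, was in none of these windows. Among the 27025 genes with such windows, the share with at least 1 match was 3.23% for CCGGAAGT, 4.23% for the NRF-1 motif, 0.422% for TCAAGGTCA, 7.29% for TGACGT and 0.167% for the MEF2 motif. A match describes the letters and shows no binding, and FPKM per gene does not tell which start was used.

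Hdac3, as a check of the labels, stood at 33.3, 31.0 and 23.7 FPKM in the wild-type and 5.51, 6.29 and 8.16 in the knockout libraries. Skeletal muscle markers such as Acta1, Ckm and Myh4 summed to between 45796 and 56263 FPKM per library. From the step size of genes under 0.3 FPKM, the depth of the other libraries was 0.660 to 1.02 times that of wild-type replicate 1, with knockout replicates 1 and 3 shallowest (0.660 and 0.674). Neutrophil markers (S100a8, S100a9, Ngp, Camp, Ly6g and Elane) summed to 528 FPKM in wild-type replicate 2 and to between 3.39 and 9.60 in the other 5 libraries.

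The levels of the 10 regulators spanned more than an order of magnitude in wild-type muscle. On the FPKM scale, which is per length, mean levels ran from Esrra (22.4) through Tfam (15.3), Ppargc1a (11.8), Gabpa (10.1), Ppara (8.33), Esrrg (6.47), Nrf1 (4.11), Ppard (2.21) and Esrrb (1.29) to Ppargc1b (1.28). Neighbours in this order had overlapping libraries except Tfam above Ppargc1a, Esrrg above Nrf1 and Nrf1 above Ppard. In the knockout Tfam stood first at 27.4 FPKM, with no library overlapping the next gene, Ppargc1a at 15.0. Esrrg moved from the sixth place to the third, at 14.2 FPKM, where its libraries overlapped those of Ppargc1a above and Esrra below. Ppargc1b (1.47) and Esrrb (1.19) remained lowest.

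**Figure D1:**
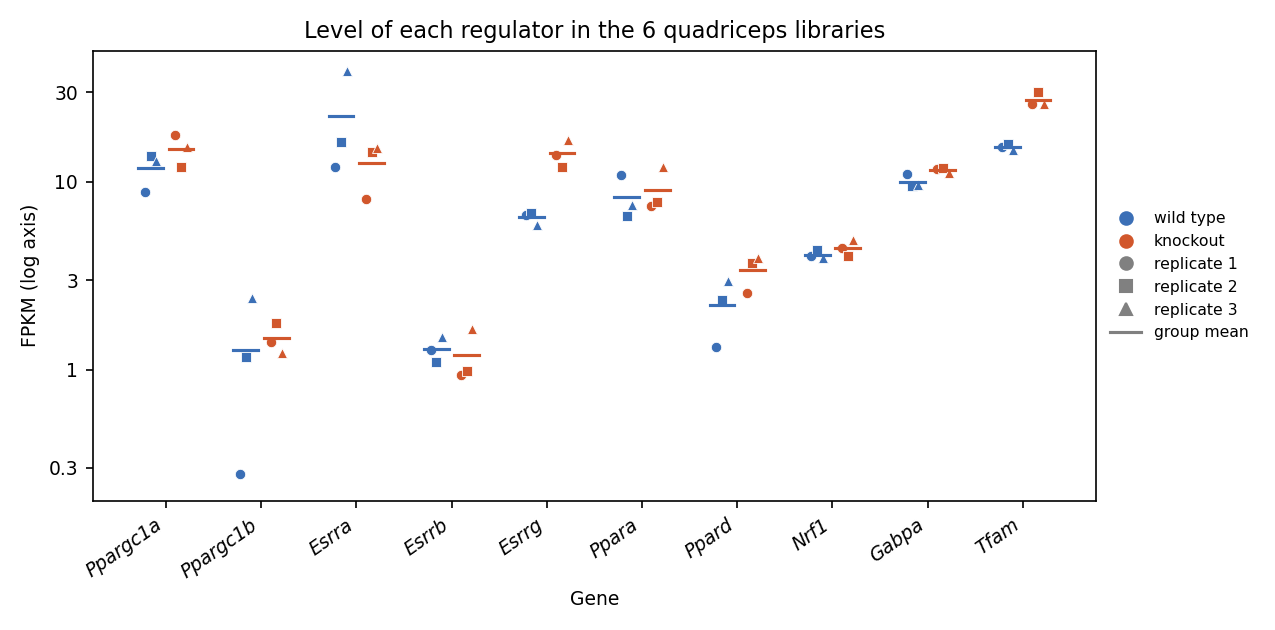
FPKM (log axis) of the 10 regulators, with one symbol per replicate, blue for wild type, orange for knockout and a bar at each group mean (n = 3 libraries per group). Every knockout library lay above every wild-type library for Esrrg, Tfam and, by a small margin, Gabpa; Esrra in wild-type replicate 3 stood at 38.9 FPKM, well above the other 5 libraries.

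A gene was tested if the authors' deposited table gave it a p-value under 1, which held for 9204 genes, and called if limma's adjusted p on log2(FPKM + 1) was under 0.05. Of the 10 regulators, 8 were tested, 2 were called higher and none lower; at an unadjusted p under 0.05 none was lower either. Among all tested genes 4.72% were called (3.04% higher, 1.67% lower). The authors' deposited q-values also called Esrrg and Tfam alone among the 10, against 10.8% of tested genes (5.9% higher, 4.94% lower). The knockout mean FPKM was lower in Esrra and the untested Esrrb and higher in the other 8, the untested Ppargc1b among them. On the log2(FPKM + 1) scale, Esrra alone of the tested regulators had a difference below 0. Of all tested genes, 51.7% had a difference above 0 on that scale. In 3 regulators (Esrrg, Tfam and Gabpa) every knockout library lay above every wild-type library, a pattern found in 15.6% of tested genes, and in none did all lie below (12.4%). The median difference of the 8 tested regulators was 0.26 on the log2(FPKM + 1) scale, against 0.01 for all tested genes.

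Ppargc1a encodes PGC-1 alpha, the exercise-responsive coactivator of the family. Its level was 8.79, 13.7 and 12.99 FPKM in the wild-type libraries and 17.7, 12.0 and 15.4 in the knockout. Knockout replicate 2 fell within the wild-type range, so the groups overlapped, although 2 knockout libraries were above all wild-type ones. Means were 11.8 ± 2.66 and 15.0 ± 2.86 FPKM (SD, n = 3), a difference on the log2(FPKM + 1) scale of 0.33 with a 95% interval from -0.13 to 0.79 (limma adjusted p = 0.387). Ppargc1a is transcribed from more than one promoter into several isoforms, which FPKM per gene sums. Ppargc1b, which encodes the related coactivator PGC-1 beta, was at 0.277, 1.17 and 2.40 FPKM in wild type and 1.40, 1.77 and 1.23 in the knockout. The wild-type libraries alone thus spanned the whole range of the knockout, and the gene was not among those tested; with all genes of mean FPKM at least 1 in the fit, its difference was 0.22 with a 95% interval from -0.56 to 1.003 (limma adjusted p = 0.775). With 1 library left out, the knockout to wild-type ratio of mean Ppargc1b ran from 0.825 (without wild-type replicate 1) to 2.04 (without wild-type replicate 3). Ppargc1a made up 84.4% to 96.9% of the summed PGC-1 FPKM in wild-type and 87.1% to 92.7% in knockout libraries.

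The ERRs are orphan nuclear receptors that bind the same DNA element and depend on PGC-1 for much of their activity. Esrrg, the receptor tied to oxidative fibres, was at 6.70, 6.85 and 5.87 FPKM in wild type and at 13.9, 12.0 and 16.7 in the knockout. The lowest knockout library was well above the highest wild-type library. The mean rose 2.19-fold, from 6.47 ± 0.525 to 14.2 ± 2.36 FPKM (SD, n = 3), and the difference on the log2(FPKM + 1) scale was 1.01 ± 0.14 (SE; 95% interval 0.69 to 1.34; limma adjusted p = 0.0154). In bulk muscle, more transcript per cell and more cells or fibres that express the gene cannot be told apart. Leaving out 1 library kept the fold between 2.001 and 2.36, but the call was lost with wild-type replicate 2 omitted (limma adjusted p = 0.0754), knockout replicate 1 omitted (0.0569) or knockout replicate 3 omitted (0.0546).

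Esrra, which encodes the most abundant ERR of wild-type muscle, did not follow Esrrg. It was at 12.1, 16.3 and 38.9 FPKM in wild type and 8.06, 14.4 and 15.2 in the knockout. Wild-type replicate 3 alone set the wild-type mean apart, and the other wild-type libraries lay in or near the knockout range. Means were 22.4 ± 14.4 and 12.6 ± 3.92 FPKM (SD, n = 3), with a difference of -0.66 (95% interval -1.63 to 0.30; limma adjusted p = 0.405). The authors' deposited table gave Esrra a q-value of 0.0577. The wild-type mean was 1.78 times that of the knockout, and 1.13 times without wild-type replicate 3. Esrrb, known for its role in stem cells, was low, at 1.28, 1.10 and 1.48 FPKM in wild type and 0.942, 0.981 and 1.66 in the knockout. It was not among the tested genes; with all genes of mean FPKM at least 1 in the fit, its difference was -0.07 (95% interval -0.48 to 0.34; limma adjusted p = 0.868).

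Esrrg thus held a larger part of the ERR transcripts in the knockout. Its part of the summed FPKM of the 3 receptors was 33.4%, 28.2% and 12.7% in the wild-type libraries and 60.8%, 43.7% and 49.7% in the knockout, and the groups did not overlap. The sum itself did overlap, at 20.04, 24.2 and 46.3 FPKM in wild type and 22.9, 27.3 and 33.5 in the knockout. The log2 ratio of Esrrg to Esrra within a library, each as FPKM + 1, went from -1.48 ± 0.93 to 0.20 ± 0.49 (SD, n = 3), a difference of 1.68 ± 0.61 (SE). In the exact permutation test (two-sided) this gave p = 0.1, the smallest that 20 splits of 3 against 3 allow, and adjusted p = 0.4 over the 4 pairs of relatives tested. Leaving out wild-type replicate 3 brought the difference to 1.15.

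**Figure D2:**
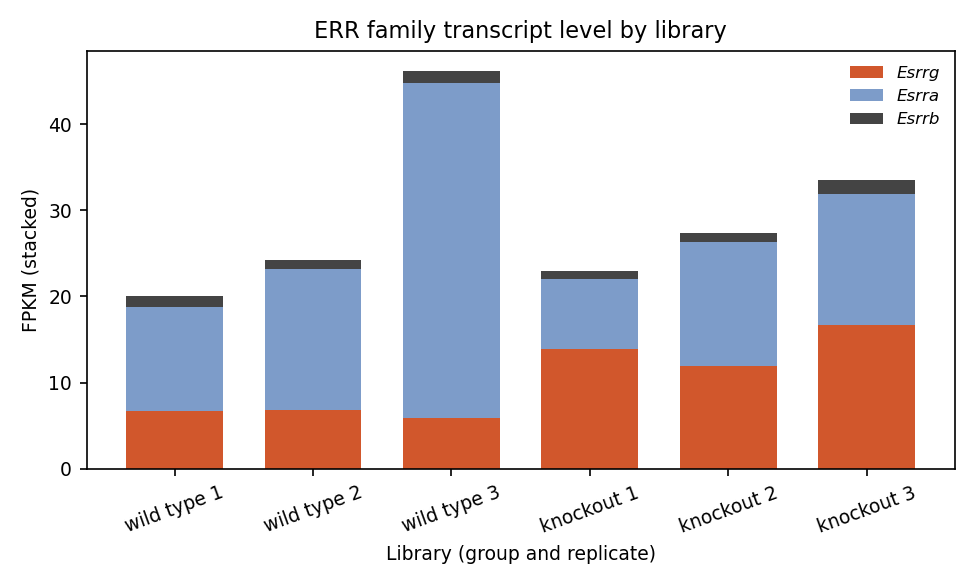
Stacked FPKM of Esrrg (orange), Esrra (blue) and Esrrb (black) in each library. The Esrrg segment is taller in each knockout library (12.0 to 16.7) than in any wild-type library (5.87 to 6.85), and the tall wild-type replicate 3 bar is mostly Esrra (84.1% of the sum).

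The PPARs are fatty-acid-sensing receptors that pair with RXR and switch on fat oxidation genes. Ppara was at 10.9, 6.58 and 7.56 FPKM in wild type and 7.43, 7.81 and 12.1 in the knockout, so the groups interleaved. Its means were 8.33 ± 2.24 and 9.10 ± 2.58 FPKM (SD, n = 3), with a difference of 0.11 (95% interval -0.41 to 0.63; limma adjusted p = 0.822). Ppard, the PPAR gene most studied in muscle endurance, was at 1.32, 2.35 and 2.95 FPKM in wild type and 2.56, 3.69 and 3.92 in the knockout. Only the lowest knockout library fell within the wild-type range. Means were 2.21 ± 0.825 and 3.39 ± 0.727 FPKM, with a difference of 0.47 (95% interval -0.07 to 1.01; limma adjusted p = 0.290). The ratio of Ppara to Ppard differed by -0.36 ± 0.43 (SE) on the log2 scale (exact permutation test, p = 0.7, adjusted 0.7), and that of Ppargc1a to Ppargc1b by 0.11 ± 0.36 (exact permutation test, p = 0.6, adjusted 0.7). Both of these signs turned when a single library was left out.

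Nrf1 and Gabpa encode the nuclear respiratory factors, and both were steady between libraries. Nrf1 (nuclear respiratory factor 1, not the unrelated Nfe2l1) was at 4.03, 4.33 and 3.95 FPKM in wild type and 4.43, 4.01 and 4.93 in the knockout. The difference was 0.09, and its 95% interval ran from -0.18 to 0.37 (limma adjusted p = 0.699). Gabpa was at 11.1, 9.49 and 9.58 FPKM in wild type and 11.7, 11.8 and 11.2 in the knockout. The groups did not overlap, yet the gap between the closest libraries was small: 11.1 against 11.2 FPKM. Its mean was 1.15 times higher in the knockout, a difference of 0.19 that missed the threshold (95% interval -0.05 to 0.43; limma adjusted p = 0.343). The coefficients of variation of Nrf1 and Gabpa were 4.87% and 8.89% in wild type and 10.4% and 3.17% in the knockout, below the medians of all tested genes (13.2% and 12.1%). Those of Esrra, Ppara, Ppard and Ppargc1a were above both medians, at 64.3%, 26.8%, 37.3% and 22.5% in wild type and 31.2%, 28.3%, 21.4% and 19.0% in the knockout.

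Tfam, the effector at the end of this chain, had the lowest coefficient of variation of the 10 in wild type (3.30%). It was at 15.3, 15.8 and 14.8 FPKM in wild type and 26.2, 30.05 and 25.9 in the knockout. All knockout libraries were more than 10 FPKM above all wild-type libraries. The mean rose 1.79-fold, from 15.3 ± 0.505 to 27.4 ± 2.32 FPKM (SD, n = 3), a difference of 0.79 ± 0.10 (SE; 95% interval 0.56 to 1.03; limma adjusted p = 0.0141). The fold stayed between 1.70 and 1.83 when any 1 library was left out, while the call was lost with wild-type replicate 2 omitted (limma adjusted p = 0.0695) or knockout replicate 3 omitted (0.0507). The ratio of Nrf1 to Gabpa, both factors that act on the Tfam promoter, differed by -0.10 ± 0.13 (SE; exact permutation test, p = 0.5).

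**Figure D3:**
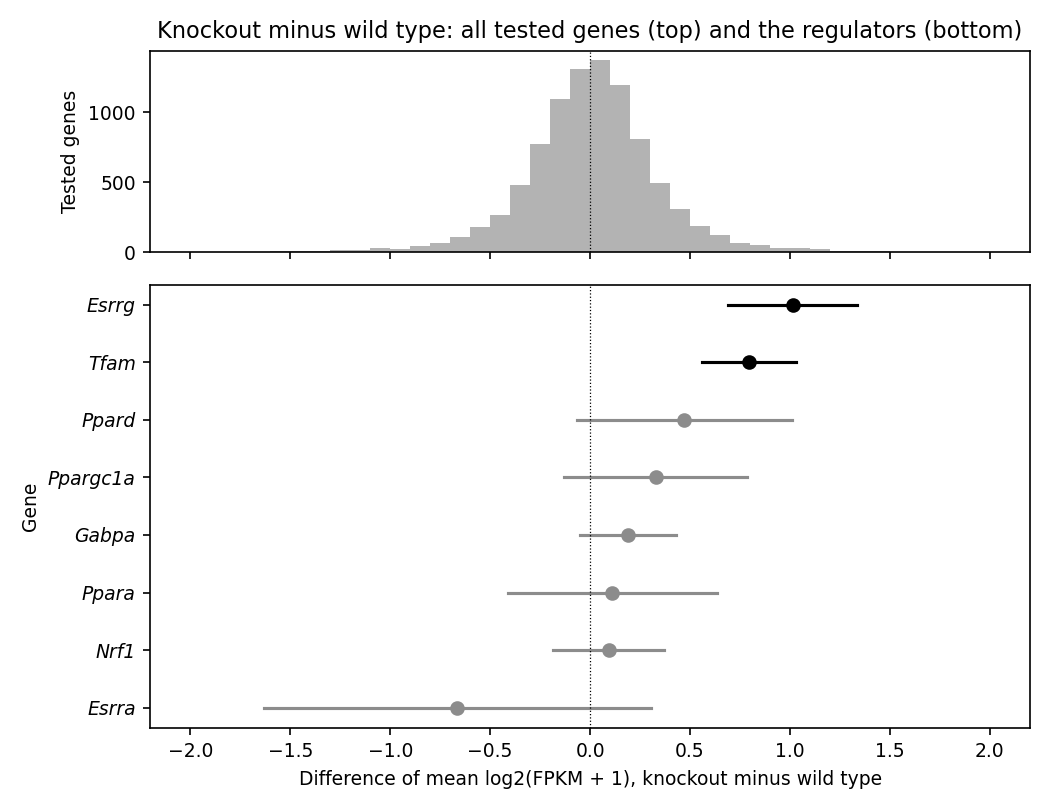
Difference of mean log2(FPKM + 1), knockout minus wild type. The top panel counts the tested genes in steps of the difference, leaving out those beyond 2.2 in either direction; the bottom panel gives the 8 tested regulators with 95% intervals, in black where called. Esrrg (1.01) and Tfam (0.79) lie in the right tail, the intervals of the other 6 cross 0, and Esrra has the widest.

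The partners and textbook targets of these regulators, together with slow and oxidative fibre genes, were then counted, from lists of textbook knowledge drawn up with earlier results of these data known. Of 99 tested genes in these lists, 8 of them fibre genes (the 10 regulators left out, each gene counted once), limma called 3 higher and none lower. At an unadjusted p under 0.05 limma had 20 higher and 3 lower; among all tested genes 12.2% were higher and 9.22% lower at that p. Limma called 3.03% of these 99 genes, all higher, against 3.04% called higher and 4.72% called in either direction among all tested genes. The authors' deposited q-values called 8 higher and 3 lower, or 11.1%, near their background of 10.8%.

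Among the genes that control or assist PGC-1, none of 15 tested was called by either rule, and the median difference was 0.06. Perm1, a muscle gene induced by PGC-1 and the ERRs, was at 74.1, 80.8 and 100.3 FPKM in wild type and 86.6, 63.7 and 96.7 in the knockout, with no separation. Mef2d, a transcription factor that acts on the Ppargc1a promoter, had the highest difference of the list (18.1 ± 0.0683 and 22.8 ± 2.75 FPKM; limma adjusted p = 0.159), and Prmt1, an arginine methyltransferase that modifies PGC-1 alpha, the lowest (12.7 ± 1.99 and 9.50 ± 0.624; limma adjusted p = 0.158). None of the 6 partner receptors was called. Their extremes were the thyroid hormone receptors: Thrb was at 5.74 ± 0.812 and 7.84 ± 0.178 FPKM and Thra at 18.9 ± 1.98 and 13.9 ± 1.94, wild type before knockout (limma adjusted p = 0.116 and 0.124). Both had groups that did not overlap, in opposite directions. Groups without overlap, in either direction, were found in 28% of all tested genes. The NRF-2 partners Gabpb1 and Gabpb2 differed by -0.23 and 0.04 and were not called.

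Of 21 ERR and PGC-1 targets 1 rose by limma, where 3.04% of all tested genes were called higher. The median difference was 0.01, against 0.01 for all tested genes. Mfn1, a mitochondrial fusion protein, was called lower in the authors' deposited table (q = 0.0252) and not by limma (62.2 ± 8.62 and 45.4 ± 3.29 FPKM; adjusted p = 0.102).

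Of 19 tested PPAR targets 1 rose by limma, 13 had a difference above 0, and the median was 0.24. Among all tested genes 3.04% were called higher, 51.7% had a difference above 0 and the median was 0.01. Hadha, the alpha subunit of the trifunctional protein of fat oxidation, was at 108, 99.7 and 87.5 FPKM in wild type and 132, 142 and 143 in the knockout, with no overlap. Its mean rose 1.41-fold (limma adjusted p = 0.0448, and between 0.0503 and 0.160 with 1 library left out). In the authors' deposited table Hadhb, its beta subunit, and Plin5, a lipid droplet protein, were also called higher (q = 0.0244 and 0.00213), and Pdk4, the kinase that shuts off pyruvate dehydrogenase, and Ucp3, an uncoupling protein, lower (q = 0.00213 and 0.00119). Limma called none of these (adjusted p of 0.119, 0.256, 0.450 and 0.323). Pdk4, a classic PPAR target, overlapped between the groups, at 178, 194 and 73.8 FPKM against 89.1, 128 and 69.2. Ucp3 and Plin5 also overlapped, while Hadhb did not. Targets of the same receptors stood on both sides of 0, as the tested genes as a whole did.

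Of 15 NRF-1 and NRF-2 targets 1 rose by limma, 11 had a difference above 0 and the median was 0.17. For all tested genes these were again 3.04% called higher, 51.7% above 0 and a median of 0.01. The called target was Hspa9, the chaperone (mortalin) that pulls proteins through the inner membrane. It was at 263, 248 and 197 FPKM in wild type and 418, 346 and 377 in the knockout. The groups were apart, and its mean rose 1.61-fold (limma adjusted p = 0.0357, and between 0.0483 and 0.121 with 1 library left out). Tomm40, the outer membrane channel, had the lowest difference of the list (-0.23). Timm23, the inner membrane channel, was called higher in the authors' deposited table (q = 0.0440), with a limma adjusted p of 0.0552. None of 15 tested genes of mitochondrial DNA upkeep and transcription was called by limma, and the median was 0.02. Tfb2m, the factor that opens mitochondrial promoters together with TFAM, was called higher in the authors' deposited table (q = 0.0408) and stood at 26.7, 23.7 and 21.5 FPKM against 34.7, 35.3 and 28.0 (limma adjusted p = 0.114). The highest and lowest differences of the list were those of Mgme1, a mitochondrial exonuclease (0.44; limma adjusted p = 0.0793), and Top1mt, a topoisomerase (-0.28; limma adjusted p = 0.524).

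**Figure D4:**
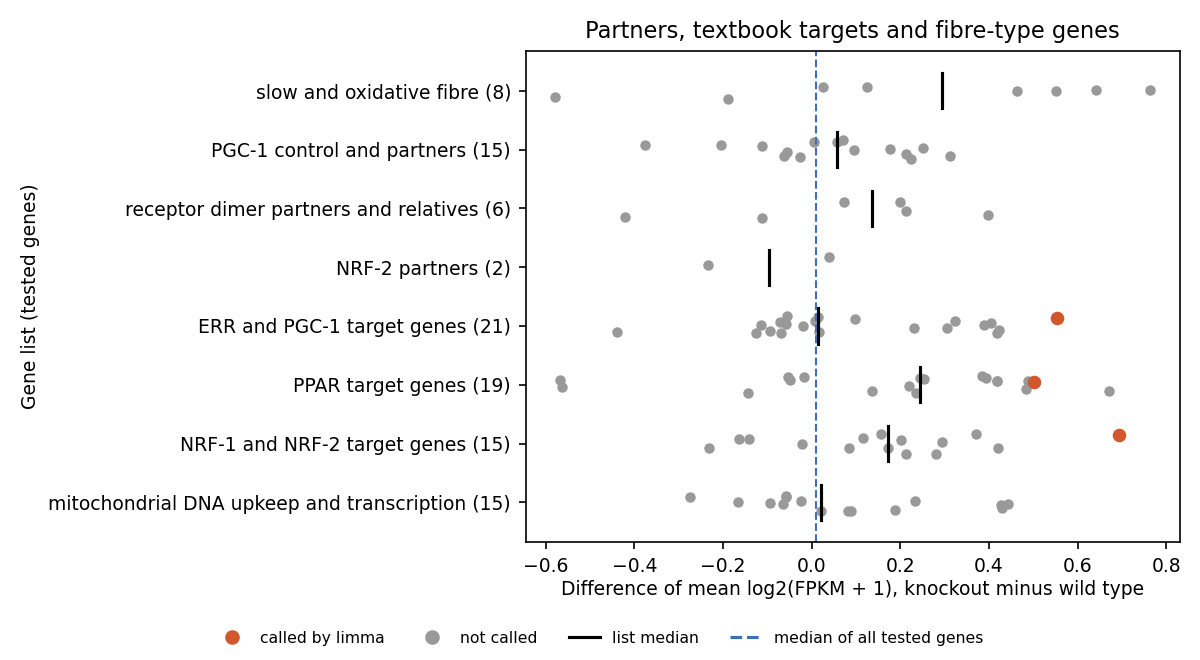
Difference of mean log2(FPKM + 1), knockout minus wild type, for each tested gene of 8 lists (points; orange where called by limma), with the list median (black bar) and the median of all tested genes (dashed line, 0.01). Called points include Hadha and Hspa9; list medians run from -0.10 for the NRF-2 partners to 0.29 for slow and oxidative fibre genes. Perm1 and Acadm stand in more than one list.

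Fibre-type and cell-type markers were read beside the rise of Esrrg and Tfam. Slow and oxidative fibre genes summed to 3515, 3600 and 3663 FPKM in wild type and 3897, 4414 and 6643 in the knockout, so the sums did not overlap. Most of each sum was Mb, myoglobin, which also stands among the skeletal muscle markers and was at 3032, 3369 and 3397 FPKM against 3640, 4040 and 6191 (limma adjusted p = 0.244). Without Mb the sums were 482, 231 and 266 FPKM in wild type and 257, 374 and 452 in the knockout, and they overlapped. None of the 8 tested was called by limma. Myl3, a slow light chain, was called higher in the authors' deposited table (q = 0.00927), Tnni1, slow troponin I, had the highest fold of those tested (1.21 ± 0.118 and 2.81 ± 0.842 FPKM; limma adjusted p = 0.0649) and Atp2a2, the slow calcium pump, the lowest (8.08 ± 1.67 and 6.96 ± 1.51 FPKM, or 0.862 times; limma adjusted p = 0.613). Myl2 had the lowest log2 difference (-0.58), with libraries from 3.45 to 72.0 FPKM. Myh7, the slow myosin heavy chain, was not tested and stood at 0.408, 0.393 and 1.47 FPKM in wild type and 0.288, 0.327 and 0.404 in the knockout. The part of fibre type in the rise of Esrrg and Tfam was not tested. Limma called no tested gene of the lists for fat, endothelial, smooth muscle, fibroblast, macrophage, neutrophil, Schwann, satellite and red blood cells. Of the matched markers, 5 of 8 fat, 6 of 6 endothelial, 5 of 6 smooth muscle and 6 of 6 fibroblast genes were tested. For macrophages, neutrophils and Schwann cells it was 4 of 6, 4 of 6 and 2 of 6. For satellite and red blood cells it was 1 of 4 and 3 of 4. The untested markers have no call. Satellite cell markers summed to 3.96 to 5.93 FPKM in wild type and 1.80 to 2.75 in the knockout, and fibroblast markers to between 421 and 596 and between 288 and 444. In the authors' deposited table Col1a1 and Col1a2 of fibroblasts, Cdh15 of satellite cells and the neutrophil genes S100a8, S100a9, Ngp and Camp were called lower. Their part in the results was not tested. Fat cell markers summed to 328 to 487 FPKM in wild type and 329 to 444 in the knockout, and endothelial markers to 67.0 to 82.3 and 76.5 to 84.1. Most of each fat sum was Fabp4, at 468, 436 and 303 FPKM in wild type and 407, 315 and 393 in the knockout. Of the listed macrophage and red blood cell symbols, 1 each was not matched in the table. The macrophage one, Emr1, is an older symbol of Adgre1, which was matched. No matched marker was at 0 in all libraries, while 4 of the 6 neutrophil markers (Ngp, Camp, Ly6g and Elane) were at 0 in every knockout library. In wild-type replicates 1 and 3, Ly6g and Elane were also at 0, Camp at 0.413 and 0 and Ngp at 0.168 and 0.164 FPKM. All 6 neutrophil markers were highest in wild-type replicate 2, with Ngp at 33.9 and Camp at 31.3 FPKM.

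The genes most like the central members across the 6 libraries were found among 5784 other tested genes with at least 5 FPKM in both groups. Correlations of log2(FPKM + 1) over 6 libraries that share these 2 groups are given as a description. For Esrrg they were Mrpl45, a mitochondrial ribosomal protein (r = 0.995), Fbxo40, a muscle ubiquitin ligase component (0.995), and Ppm1b, a phosphatase (0.993). Fbxo40 was at 99.5, 106.2 and 100.3 FPKM in wild type and 172, 153 and 190 in the knockout. For Tfam they were Bod1 (0.998), Atp6v1e1, a proton pump subunit (0.996), and Sgcd, delta-sarcoglycan (0.995). Since Esrrg and Tfam separate the groups, many genes that do so follow them: 332 and 373 of the 5784 had r above 0.9. Esrrg and Tfam themselves had r = 0.92. Nearest to Esrra were Slc38a10, Nfic and Hspb2 (0.993, 0.993 and 0.991), each highest in wild-type replicate 3, as Hspb2 at 63.6 FPKM against 32.1 to 44.3 in the other libraries. Nearest to Ppargc1a were Cpeb4, an RNA-binding protein (0.992), Pde6d (0.988) and Copg1 (0.984), none of them called.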

How the data were processed

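The authors' deposited table gives FPKM per gene for 3 wild-type and 3 knockout quadriceps libraries. The submitters' processing notes name TopHat2, Cuffdiff and the mm9 build. The table also holds a p-value and q-value per gene deposited by the authors. The sources used here give no tool version, annotation, strand setting or library scaling. Columns were matched to samples by title. The 9204 genes with a deposited p-value under 1 were fitted in limma 3.58.1 (R 4.3.3) on log2(FPKM + 1), letting the variance follow the mean, two-sided, with Benjamini-Hochberg adjustment over all of them, and called at 0.05; this scale understates changes of low genes. Every tested gene had at least 1.94 FPKM in its higher group. Folds are ratios of mean FPKM. Ratios of relatives were compared with an exact permutation test over the 6 libraries. The fit was also run on simulated data with independent normal noise for each gene. That setting cannot show how far calls depend on single libraries, and nothing is concluded from it. Members and gene lists were chosen with earlier results of these data known. Named list genes are those called by either rule and each list's extremes by fold. Perm1, Mb, Myl2, Myh7 and Fabp4 were named after their values were seen. Of 22 listed genes of mitochondrial DNA upkeep 17 were matched by symbol. Of 11 listed mitochondrially encoded genes 0 were matched by symbol, so they were not analysed here. The HDAC3 peak lists were not analysed either. A planned look-up of peaks near the members was not run because no annotation of the mm9 build was used. Read totals are not given, so no counting interval is stated. The values of 1 called list gene are not reported here.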

Additional observations from a re-analysis of the deposited data

How the results depend on the processing

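Across 13 other fits (pseudocounts, gene filters, scaling, trend, replicate block and single libraries left out), Esrrg kept a difference of 0.90 to 1.12 and was called in 9, and Tfam kept 0.73 to 0.83 and was called in 10. Leaving out 1 library gave 0 to 2 called regulators (0 without wild-type replicate 2 or knockout replicate 3), 14 to 186 genes called higher, 6 to 106 called lower, 0 to 1 pathway genes called higher and 0 called lower. The lowest counts of genes came without wild-type replicate 2. With all genes above 0 FPKM fitted, 152 genes were called higher, 95 lower and 0 pathway genes higher; at an adjusted p under 0.1 these were 513, 326 and 8. By the deposited q-values 543 genes were higher, 455 lower, 8 pathway genes higher and 3 lower. With the replicate block limma called 34 genes higher and 18 lower, and 0 regulators and 0 pathway genes higher, with adjusted p of 0.0579 for Esrrg and 0.0534 for Tfam. The replicate numbers do not pair the libraries by any label, and deviations of same-numbered libraries correlated at -0.00285, 0.0473 and 0.0487. The difference of Ppara reversed to -0.026 without wild-type replicate 2 and to -0.089 without knockout replicate 3, and reached 0.30 without wild-type replicate 1. The ratio of Ppargc1a to Ppargc1b reversed to -0.20 at a pseudocount of 0.1. With 1 library left out its difference ran from -0.16 to 0.34, that of Ppara to Ppard from -0.58 to 0.040, that of Esrrg to Esrra from 1.15 to 2.04 and that of Nrf1 to Gabpa from -0.18 to -0.02. The cause of these changes was not tested. Ppargc1b, Esrrb and Ppard lie near the low end, where 1 fragment weighs most in the shallow knockout replicates 1 and 3.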
